A study of Mus musculus with 4 samples.

Results

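The flavin-containing monooxygenase genes of the mouse were placed on the nuclear lamina maps of WT and *Tm7sf2*-KO hepatocytes. The 6 genes listed were *Fmo1*, *Fmo2*, *Fmo4*, *Fmo5*, *Fmo6* and *Fmo9*, taken by their symbols. Of these, 5 had a gene record among the 22367 protein-coding genes of the NCBIM37 annotation (the same assembly as mm9). *Fmo6* had none, and only its start was placed. Lamina-associated domains (LADs) were mapped by DamID, in which lamin B1 carries a bacterial methylase (Dam) to the nuclear envelope (NE), where it marks nearby GATC sites, and Dam alone serves as the control for open chromatin. Primary hepatocytes came from C57BL/6 WT mice and from *Tm7sf2* -/- mice on the same strain, all 12 to 16 weeks old. *Tm7sf2* encodes a sterol reductase of the NE and endoplasmic reticulum, also known as NET47. Cells of both genotypes were exposed for 24 h to lentivirus carrying either Dam-LaminB1 or unfused Dam, so WT cells received the vectors as well.

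Each of the 4 libraries held the pooled DNA of 4 mice, and each genotype had 1 library of each construct. There was therefore no replicate, no error between animals and no test between genotypes, so each difference given is one between single maps. The cells were cultured and only part of them took up the virus. The files used here are 2 lists of LADs (8107 in WT and 16076 in KO) and 2 lists of differential regions (DRs), which are stretches of at least 10 kb that lie in the LADs of 1 genotype only. Each entry is a start and an end with no value attached, so the depth behind a border cannot be given, and the labelled cell type could not be checked against marker genes. The KO libraries were sequenced less deeply than the WT libraries, and the part of that in the border positions was not tested.

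Flavin-containing monooxygenases are membrane-bound enzymes of the endoplasmic reticulum. They use NADPH and a bound FAD to add oxygen to nitrogen and sulfur atoms of drugs, dietary amines and other foreign compounds, and they work beside the cytochrome P450 enzymes in the liver. LADs are stretches of chromatin next to the lamina, where most genes are silent, and genes can move into or out of them between cell types.

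The results turn on LAD borders that lay inside or close to *Fmo* genes, and the sequence around 5 of them is shown to place each border in the genome. Each line gives 60 bases of the plus strand of NCBIM37, and capitals mark GATC, the site that Dam methylates and *DpnI* cuts.
KO LAD end in intron 5 of Fmo4, chr1:164736096-164736155: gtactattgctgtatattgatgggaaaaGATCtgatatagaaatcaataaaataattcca
KO LAD end in intron 7 of Fmo1, chr1:164763167-164763226: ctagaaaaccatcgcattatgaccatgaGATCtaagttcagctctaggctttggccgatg
WT LAD start upstream of Fmo2, chr1:164833193-164833252: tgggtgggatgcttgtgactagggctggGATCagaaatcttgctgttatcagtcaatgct
KO LAD start beyond the 3′ end of Fmo9, chr1:168568538-168568597: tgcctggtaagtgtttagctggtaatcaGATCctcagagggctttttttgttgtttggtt
KO LAD end upstream of Fmo9, chr1:168623257-168623316: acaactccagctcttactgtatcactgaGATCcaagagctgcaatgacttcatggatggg
In each of the 5 sequences the border lay at the cut inside the capitals. The distance between neighboring GATC sites is thus the finest step in which a border could be placed.

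The starts are shown next, because the start of a gene can be in another state than its body. In KO this was so for *Fmo4* and *Fmo1*, whose starts were outside LADs and whose 3′ ends were inside. For *Fmo2*, *Fmo5* and *Fmo9* the start and the body were in the same state in both genotypes. The RefSeq promoter table (GRCm38.p6) held 6 promoters for 5 of the 6 genes, and all 6 matched NCBIM37 base for base. *Fmo1* is not in the table. The 250 bases before the start are printed 5′ to 3′ on the minus strand, on which these genes lie, with GATC in capitals. They are given for the gene whose start was nearest to a WT-only DR (*Fmo2*) and for the genes whose start was in a LAD (*Fmo6* and *Fmo9*).
Fmo2, chr1:164828890-164829139: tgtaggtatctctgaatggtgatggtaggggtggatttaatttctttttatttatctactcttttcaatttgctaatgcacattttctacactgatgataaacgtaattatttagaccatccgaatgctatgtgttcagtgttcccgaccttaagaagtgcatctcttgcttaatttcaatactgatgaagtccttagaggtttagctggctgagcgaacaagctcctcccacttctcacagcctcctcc
Fmo6, chr1:164867357-164867606: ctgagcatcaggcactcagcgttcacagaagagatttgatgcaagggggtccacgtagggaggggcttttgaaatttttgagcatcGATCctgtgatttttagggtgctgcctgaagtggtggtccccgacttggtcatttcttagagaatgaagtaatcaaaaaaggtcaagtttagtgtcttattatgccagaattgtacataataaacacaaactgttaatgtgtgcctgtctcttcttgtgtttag
Fmo9, chr1:168611977-168612226: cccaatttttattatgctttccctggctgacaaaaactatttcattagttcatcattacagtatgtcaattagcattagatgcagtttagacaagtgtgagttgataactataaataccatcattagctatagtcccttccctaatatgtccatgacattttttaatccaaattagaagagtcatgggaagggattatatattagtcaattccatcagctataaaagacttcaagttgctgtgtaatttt
GATC, which reads the same on both strands, occurred 1 time upstream of *Fmo6* and not upstream of *Fmo2* or *Fmo9*. Of the 32851 promoters in the table, 41.9% held it. The bases before *Fmo9* were 32.0% G or C and had 0 CG dinucleotides, and 2.38% of all promoters had a lower GC share. *Fmo6* had 42.4% GC with 4 CG, and the *Fmo2* start printed here had 39.6% with 4 CG. The other *Fmo2* start had 47.6% with 5 CG. *Fmo4*, whose RefSeq start was in no LAD, had the same 42.4% and 4 CG as *Fmo6*. *Fmo5*, the gene farthest from a LAD, had 56.0% GC and 9 CG, against medians of 52.4% and 6 over the table. The RefSeq starts of *Fmo4* and *Fmo5* lie in exon 2 of the transcripts used here. The bases before them, and before the other *Fmo2* start, thus lie wholly or partly inside the gene records.

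Genes were then classed by their span. A gene was PI (periphery in WT, interior in KO) if at least 1 base lay in a WT-only DR, IP if it lay in a KO-only DR, and AMB if both applied. Genes without a DR were PP when LADs of WT and of KO both touched them and II otherwise. *Fmo4* and *Fmo1* were IP, *Fmo9* was PP, and *Fmo2* and *Fmo5* were II. This gave 2 IP genes of 5 (40%), where 17.1% of all protein-coding genes were IP. The 1 PP gene (20.0%) stood beside 17.9% of all genes, and the 2 II genes (40%) beside 56.6%. None of these 5 genes was PI or AMB, classes that held 5.43% and 2.96% of all genes. With 5 genes, 1 gene is 20.0% of the list.

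Of the summed *Fmo* spans, 15.5% lay in WT LADs and 27.7% in KO LADs. Of their 47 exons, 10 were in LADs in WT and 17 in KO. The 10 exons in WT were those of *Fmo9*, and the added exons belonged to the neighboring genes *Fmo4* and *Fmo1*. No share over all genes is given for spans or exons, so these 2 rises are not set against a background. The number of starts in LADs was the same, 1 of 5 in WT and 1 of 5 in KO, and it was *Fmo9* in both. Over all genes, 22.7% of starts were in WT LADs and 32.8% in KO LADs.

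**Figure D1:**
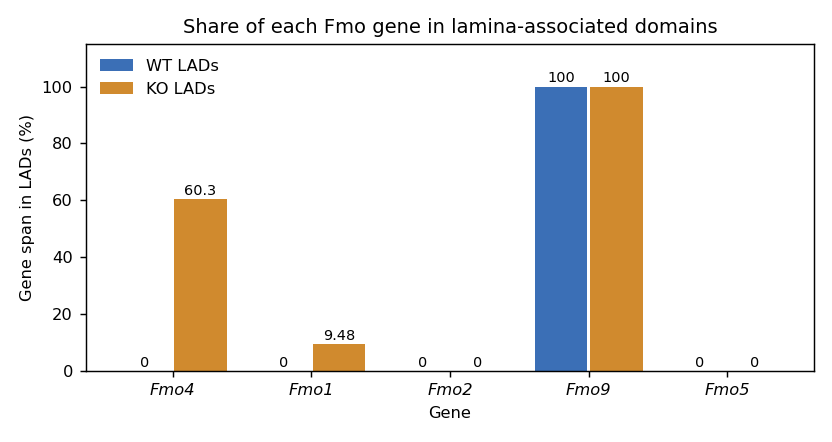
Share of the gene span in LADs (y axis, percent) for the 5 *Fmo* genes with a gene record, in WT (blue) and KO (orange), 1 map per genotype and no error bars. *Fmo4* went from 0 to 60.3% and *Fmo1* from 0 to 9.48%, *Fmo9* was at 100% in both, and *Fmo2* and *Fmo5* were at 0 in both.

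*Fmo4*, *Fmo1* and *Fmo2* lie side by side on chromosome 1, all on the minus strand. *Fmo4* (ENSMUSG00000026692.6, chr1:164724014-164744103) encodes one of the less studied forms of the enzyme. It spans 20.1 kb and had no base in a WT LAD, while 12.1 kb (60.3%) lay in a KO LAD. That LAD (chr1:164669832-164736126, 66.3 kb) ended in intron 5, so exons 6 to 10 of *Fmo4* were in it in KO and exons 1 to 5 were in no LAD in either genotype. In WT a much smaller LAD of 15.5 kb lay within the same stretch and stopped at 164697412, short of the gene. From there to the border in intron 5 the KO LAD was a KO-only DR of 38.7 kb with 102 GATC sites.

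The start of *Fmo4* remained outside LADs in both genotypes. In WT the nearest LAD was 46.7 kb away, on the downstream side. In KO the start lay in a gap of 11.6 kb (23 GATC sites) between the LAD that held the 3′ part of the gene and another LAD beyond its start, 7.98 kb from the first and 3.62 kb from the second. The RefSeq start of *Fmo4*, inside exon 2 of the transcript used here, fell in the same gap. Such a position was common among IP genes. Of 3826 IP genes, 1322 (34.6%) had their start outside KO LADs, and 669 of these (50.6%) had their 3′ end in a KO-only DR as *Fmo4* did. The 60.3% of *Fmo4* was above the median of 42.8% over IP genes, and 36.1% of IP genes had at least as large a share.

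*Fmo1* (ENSMUSG00000040181.8, chr1:164759692-164796679) encodes a form of broad substrate range. It is the longest of the 5 genes at 37.0 kb. It had no base in a WT LAD and 3.50 kb (9.48%) in a KO LAD, which was among the small overlaps, since 11.2% of IP genes had as small a share or a smaller one. The KO LAD (chr1:164747723-164763197, 15.5 kb, 48 GATC sites) had no counterpart in WT and was a KO-only DR from end to end. It began 3.62 kb beyond the *Fmo4* start, covered the rest of the stretch between *Fmo4* and *Fmo1*, and ended in intron 7 of *Fmo1*, so exons 8 and 9 were in it and exons 1 to 7 were in no LAD. The border lay 30 bases from exon 8 and 464 bases from exon 7. The *Fmo1* start was far from LADs in both maps, 36.5 kb in WT on the upstream side and 33.5 kb in KO on the downstream side. The IP call rested on the 3′ end, and it was lost (II) when at least 10% of the span was required.

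*Fmo2* (ENSMUSG00000040170.7, chr1:164804448-164828857, 24.4 kb) encodes the form best known from lung. It lay in no LAD in either genotype, with all 9 exons outside. Its start was nevertheless near a LAD in WT. A WT LAD of 185.2 kb began at 164833223, 4.37 kb upstream of the *Fmo2* start and separated from it by 10 GATC sites. In KO the first LAD on that side began at 164857810, 29.0 kb from the start. The stretch between the 2 borders was a WT-only DR of 24.6 kb with 60 GATC sites that did not reach the gene. Of 12654 II genes, 183 (1.45%) had a start within 5 kb of a WT LAD, and 25 of these (13.7%) were over 20 kb from every KO LAD, *Fmo2* among them. The limit of 5 kb is just above the 4.37 kb of *Fmo2*, so these shares depend on where the limits were set. By a 100 kb window centered on the gene, or with LADs extended by 5 kb, *Fmo2* was PI.

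The RefSeq start of *Fmo6* was found at position 164867356 of chromosome 1, 38.5 kb beyond the *Fmo2* start. It lay inside the WT LAD of 185.2 kb, 34.1 kb from the border that faces *Fmo2*. In KO it lay inside a LAD of 21.5 kb, 12 kb and 9.55 kb from its borders. The *Fmo6* start was thus in a LAD in both genotypes, but in KO the LAD around it was shorter. The paper reports a smaller average LAD size in KO over the whole genome. Without a gene record the span, exons and class of *Fmo6* were not determined. The RefSeq starts of *Fmo4* and *Fmo5* fell in exon 2 of their transcripts. Whether transcription of *Fmo6* begins at its RefSeq start was not tested. The WT-only DR upstream of *Fmo2* ended 9.55 kb downstream of the *Fmo6* start, and whether the gene reached into it is not known. Counting RefSeq starts, 2 of the 5 genes in that table, *Fmo6* and *Fmo9*, started in a LAD in WT, and the same 2 did so in KO.

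KO-only and WT-only DRs thus lay on opposite sides of a stretch that was in no LAD. The KO-only DRs at *Fmo4* and *Fmo1* ended at 164763197, and the WT-only DR upstream of *Fmo2* began at 164833223. The 70.0 kb between them (140 GATC sites) were in no LAD in either genotype and held 33.5 kb of *Fmo1* and the whole of *Fmo2*. Along the genome, 3496 of 10457 pairs of neighboring DRs within 100 kb (33.4%) had opposite directions. The genes themselves were 15.6 kb (*Fmo4* to *Fmo1*) and 7.77 kb (*Fmo1* to *Fmo2*) apart.

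**Figure D2:**
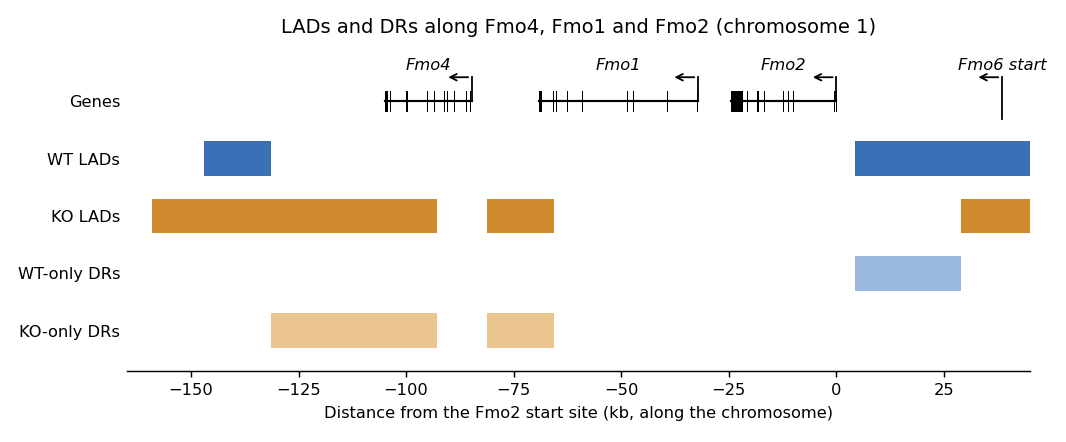
LADs and DRs of WT (blue) and KO (orange) along *Fmo4*, *Fmo1* and *Fmo2*. The x axis gives the distance from the *Fmo2* start in kb, black bars are exons, and arrows mark starts and the direction of transcription. KO LADs reached into the 3′ parts of *Fmo4* and *Fmo1*, and the WT LAD on the right began 4.37 kb from the *Fmo2* start, where the KO LAD began 29.0 kb from it.

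*Fmo9* (ENSMUSG00000026560.7, chr1:168592186-168611976, 19.8 kb) lies on the same chromosome, 3.76 Mb from *Fmo2*, and also on the minus strand. It was wholly in LADs in both genotypes, with all 10 exons and the start. In WT it sat deep inside a LAD of 792.1 kb (chr1:168343183-169135258, 2188 GATC sites), with 523.3 kb and 268.8 kb to the borders. In KO 96.9% of that LAD (767.4 kb) was still in LADs, but it was cut into 3 by 2 WT-only DRs of 12.3 kb and 12.4 kb, 1 on each side of *Fmo9*. The gene then lay in a KO LAD of 54.7 kb (chr1:168568568-168623287), with its start 11.3 kb from one border and its 3′ end 23.6 kb from the other.

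Most PP genes were wholly in LADs like *Fmo9*, 3511 of 4011 (87.5%). A WT-only DR within 25 kb beyond both ends was found at 38 of these (1.08%). The limit of 25 kb is just above the 23.6 kb at *Fmo9*, so this share depends on where the limit was set. The DR on the 3′ side reached the neighboring gene *Gm4847*, which was PI and went from 100% to 49.4% of its span in LADs. *Fmo9* was PI by the 100 kb window, which held both DRs.

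**Figure D3:**
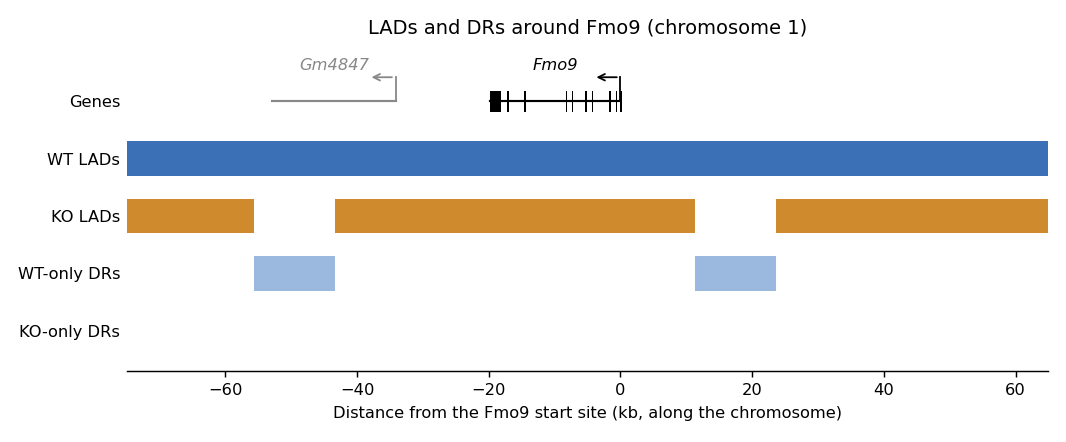
LADs and DRs of WT (blue) and KO (orange) around *Fmo9* (black, exons as bars) and *Gm4847* (grey), with the distance from the *Fmo9* start in kb on the x axis. The WT LAD covered the whole window, while the KO LADs left gaps of 12.3 kb and 12.4 kb on either side of *Fmo9*.

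*Fmo5* (ENSMUSG00000028088.8, chr3:97432727-97459205, 26.5 kb, plus strand) is the member on chromosome 3. Its enzyme differs from the others in that it acts mainly as a Baeyer-Villiger oxidase, inserting oxygen next to a carbonyl group. It was outside LADs in both genotypes, with all 9 exons. The nearest LAD was 262.3 kb upstream of its start in WT and 109.8 kb upstream in KO, where a LAD of 51.4 kb (chr3:97271582-97322941) was a KO-only DR. On the downstream side the next LAD was 1021.1 kb away in WT and 782.7 kb in KO. Neither distance was unusual for an II gene, since 61.8% of II genes were at least as far from a WT LAD and 54.7% at least as far from a KO LAD.

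**Figure D4:**
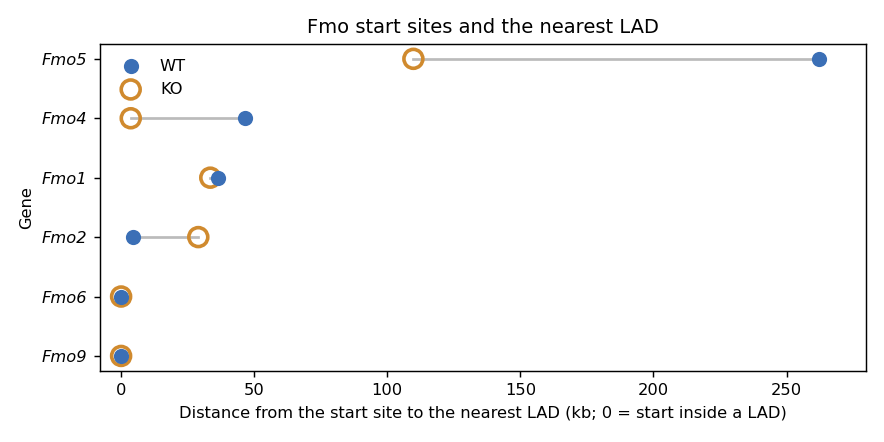
Distance in kb from the start of each *Fmo* gene to the nearest LAD in WT (filled blue) and KO (open orange), with 0 for a start inside a LAD. For *Fmo6* the RefSeq start is used. The start of *Fmo4* was 46.7 kb from a LAD in WT and 3.62 kb in KO, that of *Fmo2* 4.37 kb in WT and 29.0 kb in KO, and *Fmo6* and *Fmo9* started inside LADs in both.

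The surroundings of the genes differed as well. Within 500 kb on each side of *Fmo4*, 58.6% of bases lay in LADs in WT and 69.8% in KO. The values were 58.0% and 70.3% around *Fmo1* and 55.2% and 70.3% around *Fmo2*, whose windows largely overlap. Chromosome 1 as a whole was at 63.0% in WT and 65.4% in KO, so at this window size the 3 genes were below the chromosome in WT and above it in KO. That order depended on the window. Within 250 kb on each side, all 3 were below the chromosome in both genotypes (39.7% in WT and 53.8% in KO for *Fmo4*, 46.2% and 50.2% for *Fmo1*, 49.3% and 49.0% for *Fmo2*). Within 1000 kb all 3 were above it in both, at 71.4% to 73.7% in WT and 83.3% to 83.5% in KO. Around *Fmo9* the 500 kb windows held 81.3% in WT and 80.2% in KO, while 1000 kb on each side held 53.8% and 65.3%. Around *Fmo5* they held 2.28% and 9.85%, against 66.6% and 71.3% for chromosome 3.

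The nearest protein-coding genes with a symbol other than *Fmo* were classed too. Whether any of them belongs to the family was not examined. Beyond the 3′ side of *Fmo4*, *Prrc2c* was IP with 18.3% of its span in KO LADs, and *7420461P10Rik* was II. On the other side of *Fmo2*, *4921528O07Rik* was PI, from 100% to 72.0%, and *Prrx1*, a homeobox gene, was IP, from 87.8% to 100%. Both directions of change thus occurred among these neighbors. At *Fmo9*, *Gm4846* and *Fam78b* were PP and *Uck2*, a uridine-cytidine kinase gene, was II. The *Uck2* record used here was very short (chr1:169153958-169154050), so its class covers only that stretch. All 4 neighbors of *Fmo5* (*Chd1l*, *Olfr1402*, *Prkab2* and *Gm17651*) were II, as *Fmo5* was.

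The members shared a pattern of exon lengths, which the maps did not use. Exons of 189, 163 and 143 bases occurred in all 5 genes in the same order, and exons of 200 and 73 bases in *Fmo1*, *Fmo2*, *Fmo5* and *Fmo9*. *Fmo4* had exons of 197 and 70 bases in their place. The exon before the last 2 was 356 bases long in *Fmo1* and *Fmo2* and 353 bases in *Fmo4*, *Fmo5* and *Fmo9*. Along this shared exon order, the KO LAD border fell between the exons of 163 and 143 bases in *Fmo4* and between those of 356 and 73 bases in *Fmo1*. GATC sites, on which the maps do rest, differed between the genes. Their number ran from 47 in *Fmo9* to 67 in *Fmo1*, or 1 in every 329.3 bases (*Fmo4*) to 552.1 bases (*Fmo1*), around the 399.7 bases of chromosome 1.

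Other genes of drug metabolism were set beside the *Fmo* genes. Of 98 cytochrome P450 genes, the other large family of drug oxidases, 30 were PI (30.6%) and 9 IP (9.18%), while 10 were PP, 47 II and 2 AMB. Over all protein-coding genes, 5.43% were PI and 17.1% IP. Neighboring genes can share a DR, and the number of separate DRs behind the P450 counts was not determined. The starts of the 98 P450 genes were in LADs 29 times in WT and 19 times in KO, beside 22.7% and 32.8% of all starts. The list of other oxidizing and reducing enzymes held 29 symbols, of which 28 had a gene record. Of these, 2 were PI (7.14%), 6 IP (21.4%), 1 AMB, 19 II and none PP. The median share of the span in LADs was 0 in both genotypes for these lists and for all genes, and 0 in WT and 9.48% in KO for the 5 *Fmo* genes. That 9.48% is the share of *Fmo1* alone, the middle value of the 5, which fell to 0 with LADs trimmed by 5 kb.

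**Figure D5:**
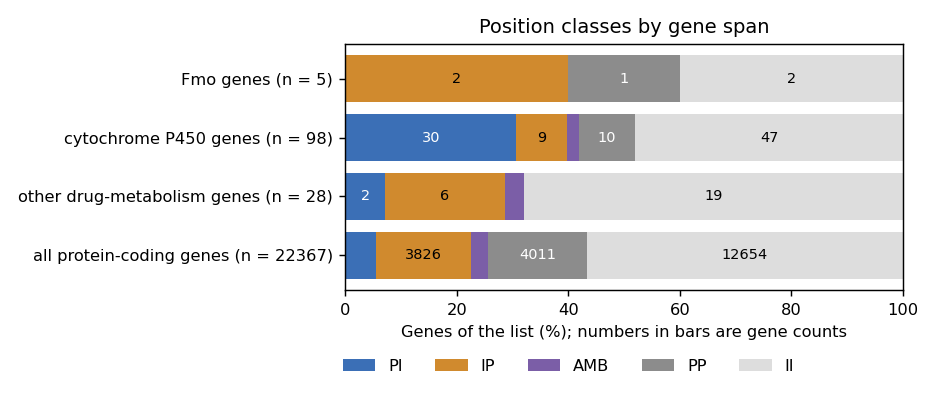
Position classes by gene span as a percent of each list (x axis), with gene counts in the bars, for the 5 *Fmo* genes, the P450 genes, the other drug-metabolism genes and all protein-coding genes. PI and IP are periphery to interior and interior to periphery from WT to KO, AMB is both, PP and II are without a DR. Of the 5 *Fmo* genes 2 were IP and 0 PI, and of the P450 genes 9 were IP and 30 PI. Of all protein-coding genes, 17.1% were IP and 5.43% PI.

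The P450 gene most like *Fmo4* in its shares was *Cyp51* (chr5:4081145-4104746), the lanosterol demethylase of cholesterol synthesis, which was IP, with 0 of its span in LADs in WT and 63.2% in KO. The one most like *Fmo1* was *Cyp20a1* (chr1:60400167-60444904), also IP with 0 and 7.56%. The distances were 2.87 and 1.91 percentage points. Among the other enzymes, the carbonyl reductase gene *Cbr1* was IP over its whole span (0 in WT, 100% in KO). In the aldehyde oxidase cluster of chromosome 1, *Aox4* (16.8% in WT, 50.1% in KO) and *Aox3l1* (0, 19.8%) were IP, *Aox3* (29.1%, 13.6%) was AMB and *Aox1* was II. *Aox3* thus held DRs of both directions within its span, which none of the 5 *Fmo* genes did.

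The paraoxonase genes *Pon3* (0 in WT, 12.8% in KO) and *Pon2* (0, 0.224%) were IP by small overlaps, as *Fmo1* was. The aldehyde dehydrogenase gene *Aldh1a7* was PI and went from 57.0% to 0. Of the monoamine oxidase genes, *Maob* was PI (51.7% in WT, 11.2% in KO). *Maoa* was IP for a KO-only DR over 7.11% of its span, although its total share in LADs was 63.0% in WT and 47.9% in KO. A call set by 1 base of a DR can thus differ in direction from the share of the span, which it did not for the *Fmo* genes.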

How the data were processed

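The 6 *Fmo* genes, the comparison lists and the rule for named genes were chosen with earlier results of these data known. The rule took the *Fmo* genes, the 2 nearest protein-coding genes with another symbol on each side of each block of *Fmo* genes (under 100 kb apart), for each IP, PI or AMB member the P450 gene nearest in its pair of span shares (Euclidean distance), and the PI, IP or AMB genes of the drug-metabolism list. *Aox1*, which is II, was named after its values were seen. Some genes of the family are not reported here.

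The authors mapped reads to mm9 (the submitters' processing notes name BWA and limma, with no version), computed log2(Dam-LaminB1/Dam) for each fragment between *DpnI* sites, and segmented the profiles into LADs with DNAcopy (circular binary segmentation, defaults). The deposited lists hold start and end positions. The 7787 WT-only and 8208 KO-only DRs were checked by subtracting the LAD lists from each other with a minimum of 10 kb, and each had the same borders.

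Spans, starts and exons came from the GENCODE annotation of NCBIM37, with exons of the protein-coding transcript that has the most exonic bases. Positions are 1-based. Promoters are from RefSeq (GRCm38.p6) and were placed on NCBIM37 by exact sequence. Shares of a chromosome are of its bases other than N. Distances run from the start to the nearest LAD base. P450 genes are protein-coding symbols of Cyp followed by a digit. Python 3.11.15 and numpy 2.4.6 were used, with matplotlib 3.10.9 for figures. Simulated lists tested 5 interval steps, with 0 errors. No test between genotypes was made. The alternatives were other overlaps, windows, LAD and DR lengths, joined LADs and shifted borders, and RefSeq starts were added after seeing the data. The DamID profiles and expression are not analysed here.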

Additional observations from a re-analysis of the deposited data

How the results depend on the processing

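Without replicate libraries, a value was counted as unchanged within a factor of 1.5. *Fmo5* kept its class under all 11 alternatives, *Fmo4* and *Fmo9* under 10, *Fmo2* under 9 and *Fmo1* under 6. The main counts were 2 IP, 1 PP, 2 II and 0 PI genes. The number of IP genes was 1 when 10% or 50% of the span had to lie in DRs, with DRs of at least 20 kb and with LADs trimmed by 5 kb, each time through the loss of *Fmo1*. With 10% of the span required, that 1 gene was 20.0% of the list, where 15.8% of all protein-coding genes were IP. By the start alone there were 0 IP and 4 II genes. By a window of 100 kb centered on the gene there were 2 PI (*Fmo2* and *Fmo9*), 0 PP and 1 II. With LADs extended by 5 kb, *Fmo2* became PI, which gave 1 PI and 1 II gene. The number of starts in LADs, 1 in each genotype, was 2 in KO when LADs were joined across gaps up to 20 or 50 kb (*Fmo4* added), and 2 in WT and 2 in KO with LADs extended by 5 kb. It was also 2 in WT and 2 in KO by RefSeq starts, an alternative chosen after seeing the data, where *Fmo6* enters. The share of *Fmo4* in KO LADs ran from 35.4% (LADs trimmed by 5 kb) to 100% (LADs joined across 20 kb), and that of *Fmo1* from 0 (trimmed, or LADs of at least 20 kb) to 23.0% (LADs extended by 5 kb). Of the counts and summed shares over the *Fmo* genes, 74 values were unchanged and 17 moved. Of the values of single genes and of the other lists, 112 were unchanged and 23 moved. No gene turned from IP to PI or back. No paired analysis was possible because each genotype has 1 library of each construct. The lists carry no depth, so the precision of a border is limited by GATC spacing and by read numbers that were lower in KO.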
